A study of Mus musculus with 24 samples.

Results

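The genes described here act in the recognition and repair of damaged DNA. They are 34 genes of homologous recombination, the Fanconi anemia pathway, the DNA damage checkpoint and other repair pathways, chosen by name from the annotation of the array. The array held 45 probes for them among 39429 probes that were not controls, 41 of the 45 passed the filter on low signal, and each of the 34 genes had a probe in use among 20894 genes tested. Expression was measured in 24 mammary tumors of female BALB/c mice, 1 tumor to an Agilent 2-color array, against a shared reference RNA pooled from 11 mouse cell lines. Every mouse had received the carcinogen 7,12-dimethylbenz[a]anthracene (DMBA), which forms bulky adducts on DNA. The labels grouped the tumors by diet and by time of onset: 3 early and 6 late tumors on a continuous high animal fat diet (HFD), 3 early and 3 late tumors of mice moved from HFD to a low-fat diet (LFD) after puberty (HFD-LFD), 4 late tumors of mice moved from LFD to HFD in adulthood (LFD-HFD), and 5 late tumors on continuous LFD. No LFD or LFD-HFD tumor was early, and the tumors were whole tissue of differing histology, so that a lower value cannot be told apart between fewer cells of a type and less RNA per cell. The labels do not say whether any of these tumors shared a mouse, and a p-value therefore measures the spread between tumors.

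A double-strand break is first bound by the Mre11a, Rad50 and Nbn complex, its ends are resected by nucleases and helicases such as Exo1 and Blm, and Brca1 with its partner Bard1, then Palb2 and Brca2, load the recombinase that copies the sister chromatid. The Fanconi proteins unhook crosslinked strands and hand them to the same recombination machinery, while Atm and Atr, with Chek2 and Chek1 downstream, halt the cell cycle. Xrcc5 and Xrcc6, the Ku proteins, rejoin ends without a template, and Parp1, Xrcc1 and Ung act on damaged bases and single-strand breaks. In the mammary gland, inherited loss of Brca1, Brca2, Palb2, Atm or Chek2 is known to raise the risk of cancer. Recombination runs in S and G2 phase, when a sister chromatid is present, and many of these genes are transcribed most strongly in dividing cells.

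Promoters of repair genes often carry sites for E2F, a family of factors that turns on genes at entry into S phase. The window of 250 bases before to 50 bases after each transcription start (RefSeq, GRCm38.p6) was available for 28 of the 34 genes, 29 windows in all. An E2F site, searched on both strands as TTTGGCGC, TTTCCCGC, TTTGCCGC or TTTCGCGC, lay in 6 of the 29 windows (20.7%), against 2.26% of all 32851 windows, and 3.99% of the 13292 genes tested on the array that had a window. The stretches of 30 bases that hold these sites are shown because 6 genes of different repair pathways share the same letters, given here 5′ to 3′ on the strand of the gene with the site in capitals (the last in its place after the start of transcription):
Brca2, chr5:150522442-150522471, plus strand: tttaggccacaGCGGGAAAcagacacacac
Bard1, chr1:71103163-71103192, minus strand: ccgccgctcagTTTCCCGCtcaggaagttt
Fancg, chr4:43010335-43010364, minus strand: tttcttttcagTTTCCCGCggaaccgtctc
Chek2, chr5:110839820-110839849, plus strand: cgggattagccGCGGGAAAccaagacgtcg
Xrcc6, chr15:82016312-82016341, plus strand: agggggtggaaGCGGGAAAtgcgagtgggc
Msh6, chr17:87975054-87975083, plus strand: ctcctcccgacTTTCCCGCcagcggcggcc

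All 6 were the same site, TTTCCCGC, which reads GCGGGAAA where it lay on the other strand. CCAAT, the box bound by the factor NF-Y, lay in 18 of the 29 windows (62.1%), against 37.4% of all windows and 42.1% of the genes tested. The cell cycle homology region, searched as TTTGAA or TTCGAA, lay in 2 of them (6.9%), against 19.2% and 17.0%. Of the 9 genes with a window that differed by onset below, 7 had a CCAAT box and 2 an E2F site, and of the other 19 genes 10 and 4 did. Brca1 had none of the E2F letters in its window and had a CCAAT box 86 bases before its start. That stretch and those of 2 further genes that differed by onset, Fancm and Rad54l, are printed with the box in capitals:
Brca1, chr11:101552025-101552054, minus strand: aaagactaggtagCCAATcgcaaacccaga
Fancm, chr12:65075527-65075556, plus strand: tccggaatggcaaCCAATcatcttcccgcc
Rad54l, chr4:116123724-116123753, minus strand: tcactgaacgcagCCAATaggggactgtgg

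The array carried 60-base probes, most of which matched an unbroken stretch of the genome. The probes of Brca1 and Parp1 crossed an intron, so that they read spliced RNA, and their sequences (mm9, from the array files) are given because both genes are followed tumor by tumor below:
Brca1, chr11:101359283-101363319, minus strand: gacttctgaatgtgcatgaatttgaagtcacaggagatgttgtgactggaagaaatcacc
Parp1, chr1:182530341-182530639, plus strand: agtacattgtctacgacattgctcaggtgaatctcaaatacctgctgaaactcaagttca

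Values are the log2 ratio of tumor to reference, so that 1 unit is a doubling and 0 is the level of the reference RNA. The labels place the tumor in the Cy5 dye and the reference in Cy3, whereas the methods of the study give the reference the Cy5 dye, and the direction used here is that of the labels. The Cy5 channel varied more between arrays, with a median SD of 0.61 log2 units against 0.27 in Cy3. The 2 Y chromosome probes, which should have no target in female tumors, had a log2 Cy5/Cy3 below 0 on all 24 arrays, from −5.05 to −2.78. On 7 arrays of slides 6 and 7, all with late tumors, a block of rows was dim in Cy5, 18.3% to 26.4% of the spots, and these spots were treated as missing, which took away values of 15 of the 34 genes on at least 1 array. In the tumor channel, 66.1% to 89.2% of the probes of an array were well above background. The repair genes were well above background on every array that gave a value, except Brca1 (16 of 24 arrays) and Chek1 (19 of 21). For Brca1 these were 6 of 6 early and 10 of 18 late tumors, so that all 8 arrays not well above background held late tumors.

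Part of the repair genes were higher in early than in late tumors. Of the 34, 11 passed an adjusted p of 0.05 (limma, Benjamini-Hochberg over all genes) with a higher level in the 6 early tumors, where 6.36% of all genes did so, and 0 passed with a lower level, where 9.91% of all genes did. At an unadjusted p under 0.05 there were 17, all higher, against 32.4% of all genes in either direction. The median difference of the 34 genes was 0.34 log2 units and 29 were above 0, whereas the median of all genes was −0.05 and 43.3% were above 0. In no repair gene did every early tumor lie above every late tumor, and 0.35% of all genes did. The 11 genes were Bard1, Fancm, Rad54l, Brca1, Msh6, H2afx, Palb2, Brip1, Parp1, Atm and Xrcc2, with differences from 0.40 to 0.97 log2 units. The other 23 did not pass, and 5 of them, Xrcc3, Atr, Chek1, Xrcc5 and Xrcc6, lay below 0.

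**Figure D1:**
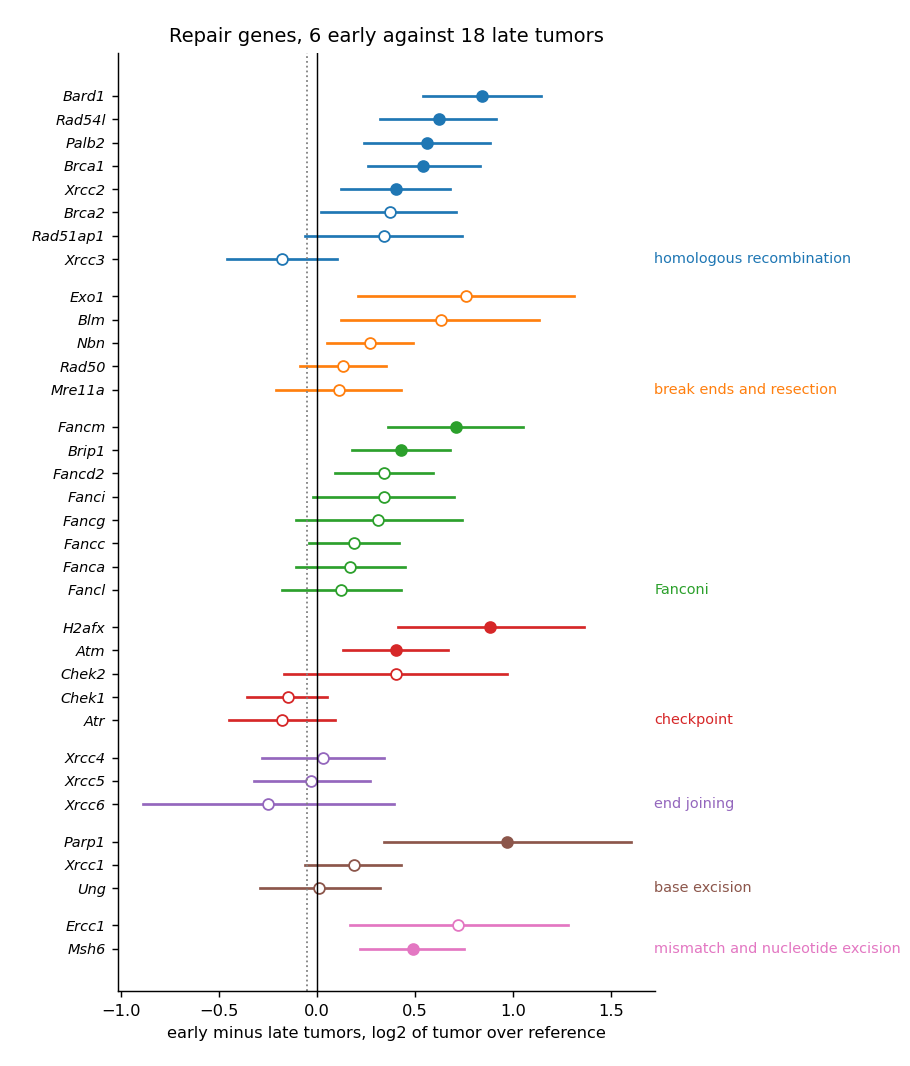
Difference between 6 early and 18 late tumors for each of the 34 repair genes, in log2 of tumor over reference, grouped by role, with 95% confidence intervals as bars and filled points for an adjusted p under 0.05. The 11 filled points lie between 0.40 and 0.97, and the dotted line marks the median of all genes at −0.05.

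Homologous recombination had the most genes that passed, 5 of 8, with a median difference of 0.47. Brca1, the tumor suppressor that directs broken ends into recombination, was at 0.58, 0.68 and 1.03 in the early HFD tumors and at 0.08, 0.49 and 0.64 in the early HFD-LFD tumors. Late tumors gave −0.07, 0.19 and 0.28 as the lowest, median and highest of 6 under HFD, −0.21, −0.17 and −0.10 under HFD-LFD, −0.39, −0.30, −0.07 and 0.12 under LFD-HFD, and −0.26, −0.18, 0.36, 0.55 and 0.58 under LFD. The highest late values were those of 3 LFD tumors, and 8 of 18 late tumors reached the lowest early tumor.

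The mean of Brca1 was 0.58 ± 0.31 (SD, n = 6) in early and 0.04 ± 0.29 (n = 18) in late tumors, a difference of 0.54 (SE 0.14, limma adjusted p = 0.0109). The Brca1 probe was dim, and the size of its difference depended on how dim spots were handled: the log ratio of the scanner software, which adds no offset, gave 2.19 (SE 0.51, adjusted p = 0.0081). The call was lost with slide as a random block (0.55, adjusted p = 0.0525).

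Bard1, which binds Brca1 to form a ubiquitin ligase, was at 0.50, 0.74 and 0.83 in early HFD and at 0.66, 1.01 and 1.12 in early HFD-LFD tumors. Its late values were −0.26, −0.01 and 0.18 under HFD, 0.20, 0.28 and 0.65 under HFD-LFD, −0.25, −0.13 and 0.10 under LFD-HFD, and −0.54, −0.35, −0.22 and −0.05 under LFD, with 5 late tumors missing. A single late tumor, of an HFD-LFD mouse, reached the range of the early tumors.

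Bard1 differed by 0.84 (SE 0.14, limma adjusted p = 0.00138), the smallest p of the 34 genes. Its probe in use lay at chr1:71074294-71074353 (mm9, minus strand), and a dimmer probe at chr1:71074902-71074961 differed by −0.04 (SE 0.16, adjusted p = 0.876), so that the 2 probes of Bard1 disagreed. With the mean of its probes the difference was 0.37 (adjusted p = 0.0651).

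Palb2, the bridge between Brca1 and Brca2, had 1.12, 1.42 and 1.47 in early HFD tumors and 0.64, 0.88 and 1.22 in early HFD-LFD tumors. Late tumors ranged from 0.08 through a median of 0.56 to 1.34, and 6 of 18 reached the lowest early tumor. Its difference was 0.56 (SE 0.15, adjusted p = 0.0171), and a second Palb2 probe gave 0.39 (adjusted p = 0.0753).

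Rad54l, a motor protein that helps the recombinase invade the sister strand, ranged from 0.53 to 1.07 in early and from −0.43 to 0.79 in 14 late tumors, a difference of 0.62 (SE 0.14, adjusted p = 0.00751). Xrcc2, a relative of the recombinase, ranged from 0.48 to 1.07 in early and from −0.22 to 1.03 in late tumors and differed by 0.40 (SE 0.14, adjusted p = 0.0454). The call of Xrcc2 rested on single tumors, since it was kept in 9 of 24 fits that each left out a tumor.

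Brca2, which loads the recombinase, did not pass. It was at −0.18, 0.23 and 0.52 in early HFD and at 0.55, 0.58 and 1.0 in early HFD-LFD tumors. Late values were −0.48, 0.30 and 0.56 (lowest, median and highest of 6) under HFD, −0.09, 0.35 and 0.43 under HFD-LFD, −0.47, −0.24, −0.12 and 0.28 under LFD-HFD, and −0.53, 0.07, 0.12, 0.13 and 0.56 under LFD. The 14 late tumors at or above the lowest early tumor show how far the groups overlapped. The difference was 0.37 (SE 0.17, adjusted p = 0.128). Rad51ap1, which stimulates the recombinase, differed by 0.34 (adjusted p = 0.226), and Xrcc3 by −0.18 (adjusted p = 0.362).

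**Figure D2:**
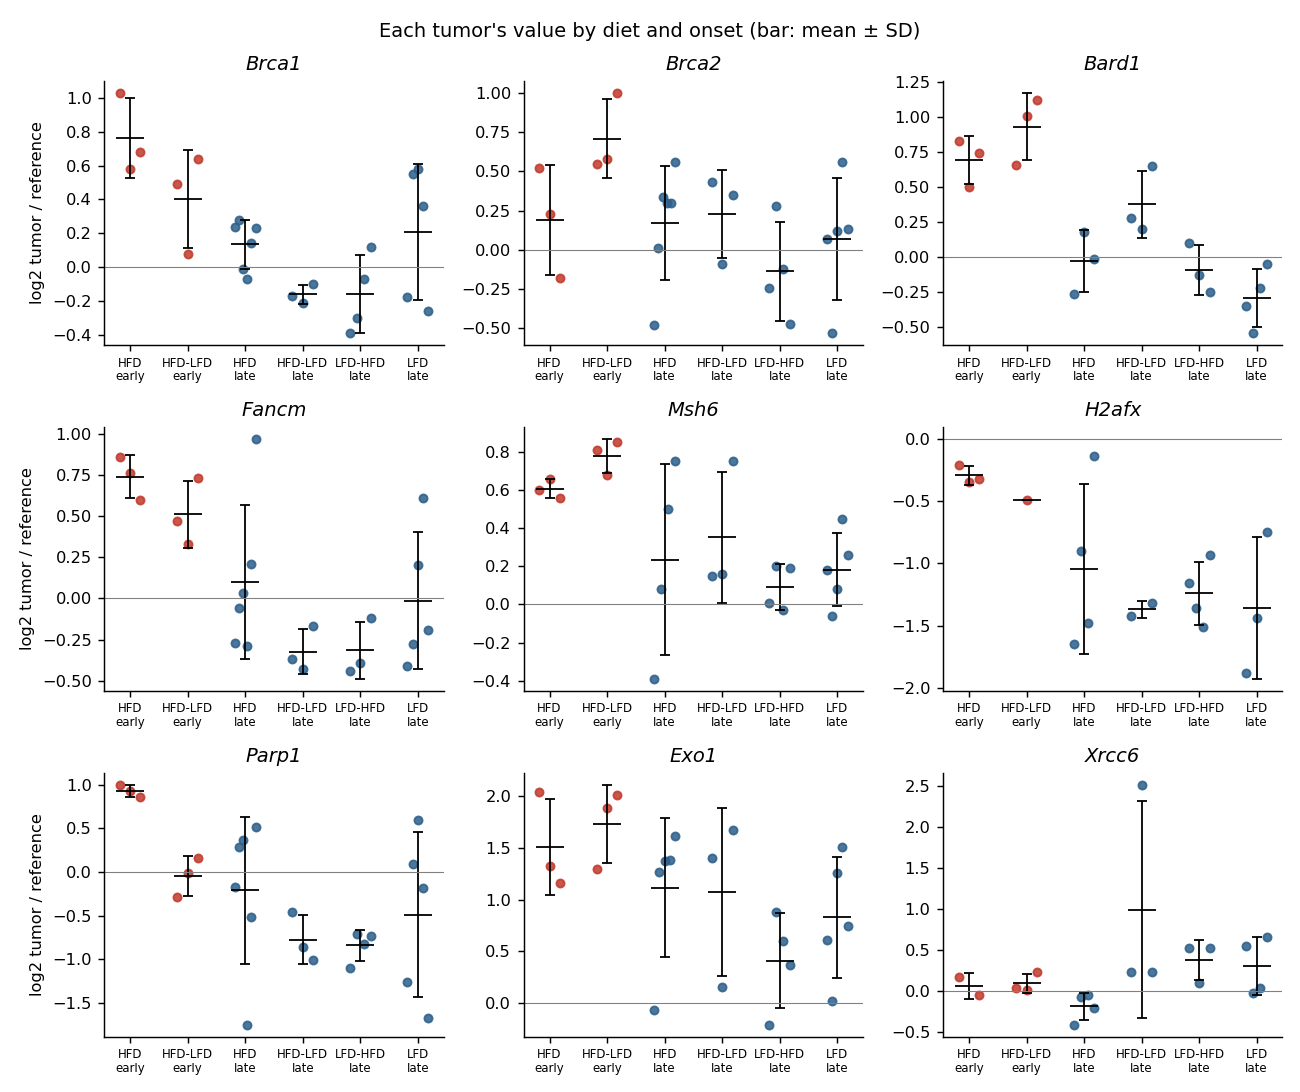
Log2 ratio of tumor over reference in each tumor for Brca1, Brca2 and the gene with the smallest p of each role, by diet and onset (early in red, late in blue), with mean ± SD as bars. Early tumors lie above most late tumors for Bard1, Fancm, Msh6 and H2afx, and the Xrcc6 panel shows a single HFD-LFD late tumor at 2.52; H2afx has 1 early HFD-LFD value and no SD there.

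In the Fanconi group, 2 of 8 genes passed and all 8 were above 0, with a median of 0.32. Fancm, the DNA translocase that brings the Fanconi core complex to stalled forks, was at 0.60, 0.76 and 0.86 in early HFD and at 0.33, 0.47 and 0.73 in early HFD-LFD tumors. Late HFD tumors ran from −0.29 through a median of −0.01 to 0.97, late HFD-LFD tumors were at −0.43, −0.37 and −0.17, late LFD-HFD tumors at −0.44, −0.39 and −0.12, and LFD tumors at −0.41, −0.28, −0.19, 0.20 and 0.61. The groups overlapped through 2 late tumors at or above the lowest early value.

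Fancm differed by 0.71 (SE 0.17, adjusted p = 0.00736). Brip1, the helicase that binds Brca1, was between 0.37 and 0.76 in early and between −0.29 and 0.62 in late tumors and differed by 0.43 (SE 0.12, adjusted p = 0.0193). Fancd2 and Fanci, the pair that is ubiquitinated at crosslinks, differed by 0.34 each (adjusted p = 0.0601 and 0.173). The core complex members Fancg (0.31), Fancc (0.19), Fanca (0.17) and Fancl (0.12), the last being the ubiquitin ligase, had adjusted p of 0.253 or more.

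Among the checkpoint genes, 2 of 5 passed. H2afx encodes the histone variant that is phosphorylated around breaks, and early tumors had −0.35, −0.32 and −0.21 under HFD and −0.49 in the single HFD-LFD tumor with a value. Late tumors had −1.65, −1.48, −0.90 and −0.14 under HFD, −1.42 and −1.32 under HFD-LFD, −1.51, −1.36, −1.16 and −0.93 under LFD-HFD, and −1.88, −1.44 and −0.75 under LFD. All 17 values were below the reference, and a single late HFD tumor reached the early range.

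The difference of H2afx was 0.88 (SE 0.23, adjusted p = 0.0152). Atm, the kinase that responds to double-strand breaks, was at 1.23 to 1.77 in early and 0.71 to 1.53 in 11 late tumors and differed by 0.40 (SE 0.13, adjusted p = 0.0445), with 0.49 (adjusted p = 0.0239) at its second probe. The call of Atm at the probe in use was kept in 11 of 24 fits that each left out a tumor. Chek2 differed by 0.40 (adjusted p = 0.324), while Chek1 (−0.15, adjusted p = 0.282) and Atr (−0.18, adjusted p = 0.354), the kinases of the replication checkpoint, lay below 0.

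Of the genes that bind and resect broken ends, 0 of 5 passed, although all 5 were above 0 with a median of 0.27. Exo1, the nuclease that resects ends and acts in mismatch repair, was at 1.16, 1.33 and 2.04 in early HFD and at 1.30, 1.89 and 2.01 in early HFD-LFD tumors. Late tumors were at −0.07, 1.27, 1.37, 1.38 and 1.62 under HFD, 0.15, 1.4 and 1.67 under HFD-LFD, −0.21, 0.37, 0.60 and 0.88 under LFD-HFD, and 0.02, 0.61, 0.74, 1.26 and 1.51 under LFD. All early tumors lay above the late median, and 8 of 17 late tumors reached the lowest early one.

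Exo1 differed by 0.76 (SE 0.27, adjusted p = 0.0519). The helicase Blm differed by 0.63 (SE 0.24, adjusted p = 0.0788) and Nbn by 0.27 (adjusted p = 0.0779). Rad50 and Mre11a differed by 0.13 and 0.11 (adjusted p = 0.4 and 0.655), with 95% intervals of −0.09 to 0.35 and −0.21 to 0.43.

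Mismatch and nucleotide excision repair were each represented by a single gene. Msh6, the mismatch recognition protein, was at 0.56, 0.60 and 0.66 in early HFD and at 0.68, 0.81 and 0.85 in early HFD-LFD tumors, a narrow range. Late tumors were at −0.39, 0.08, 0.50 and 0.75 under HFD, 0.15, 0.16 and 0.75 under HFD-LFD, −0.03, 0.01, 0.19 and 0.20 under LFD-HFD, and −0.06, 0.08, 0.18, 0.26 and 0.45 under LFD, and 2 of 16 reached the early range. Msh6 differed by 0.49 (SE 0.13, adjusted p = 0.014). Ercc1, a nuclease subunit that cuts beside bulky adducts, differed by 0.72 (SE 0.27, adjusted p = 0.0681).

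In base excision repair, Parp1 passed and Xrcc1 (0.19, adjusted p = 0.279) and Ung (0.01, adjusted p = 0.961) did not. Parp1, which senses single-strand breaks, was at 0.86, 0.93 and 1.0 in early HFD and at −0.29, −0.01 and 0.16 in early HFD-LFD tumors. Late tumors were at −1.75, 0.06 and 0.52 (lowest, median and highest of 6) under HFD, −1.01, −0.86 and −0.46 under HFD-LFD, −1.1, −0.83, −0.73 and −0.71 under LFD-HFD, and −1.68, −1.26, −0.19, 0.09 and 0.59 under LFD. In each of the HFD and HFD-LFD diets the early tumors lay above all late tumors, and over all diets 7 of 18 late tumors reached the lowest early one. The difference was 0.97 (SE 0.31, adjusted p = 0.0335), the largest of the 34 genes, and fits without slides 6 and 7 gave 0.96 (adjusted p = 0.0685).

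The end joining genes did not pass, and their median difference was −0.03. Xrcc6 (Ku70) was at −0.05 and 0.17 in early HFD and at 0.01, 0.04 and 0.23 in early HFD-LFD tumors. Late tumors were at −0.41, −0.21, −0.07 and −0.05 under HFD, 0.23, 0.23 and 2.52 under HFD-LFD, 0.10, 0.52 and 0.53 under LFD-HFD, and −0.03, 0.04, 0.55 and 0.66 under LFD. The single HFD-LFD tumor at 2.52 set the wide spread of the late group. The difference of Xrcc6 was −0.25 (SE 0.31, adjusted p = 0.595), and it was 0.28 with median centring in place of loess, close to the median of all genes under that scaling, 0.22. Xrcc5 (Ku80) differed by −0.03 and Xrcc4, which joins the ligase at the ends, by 0.03, with 95% intervals of −0.32 to 0.27 and −0.28 to 0.34.

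**Figure D3:**
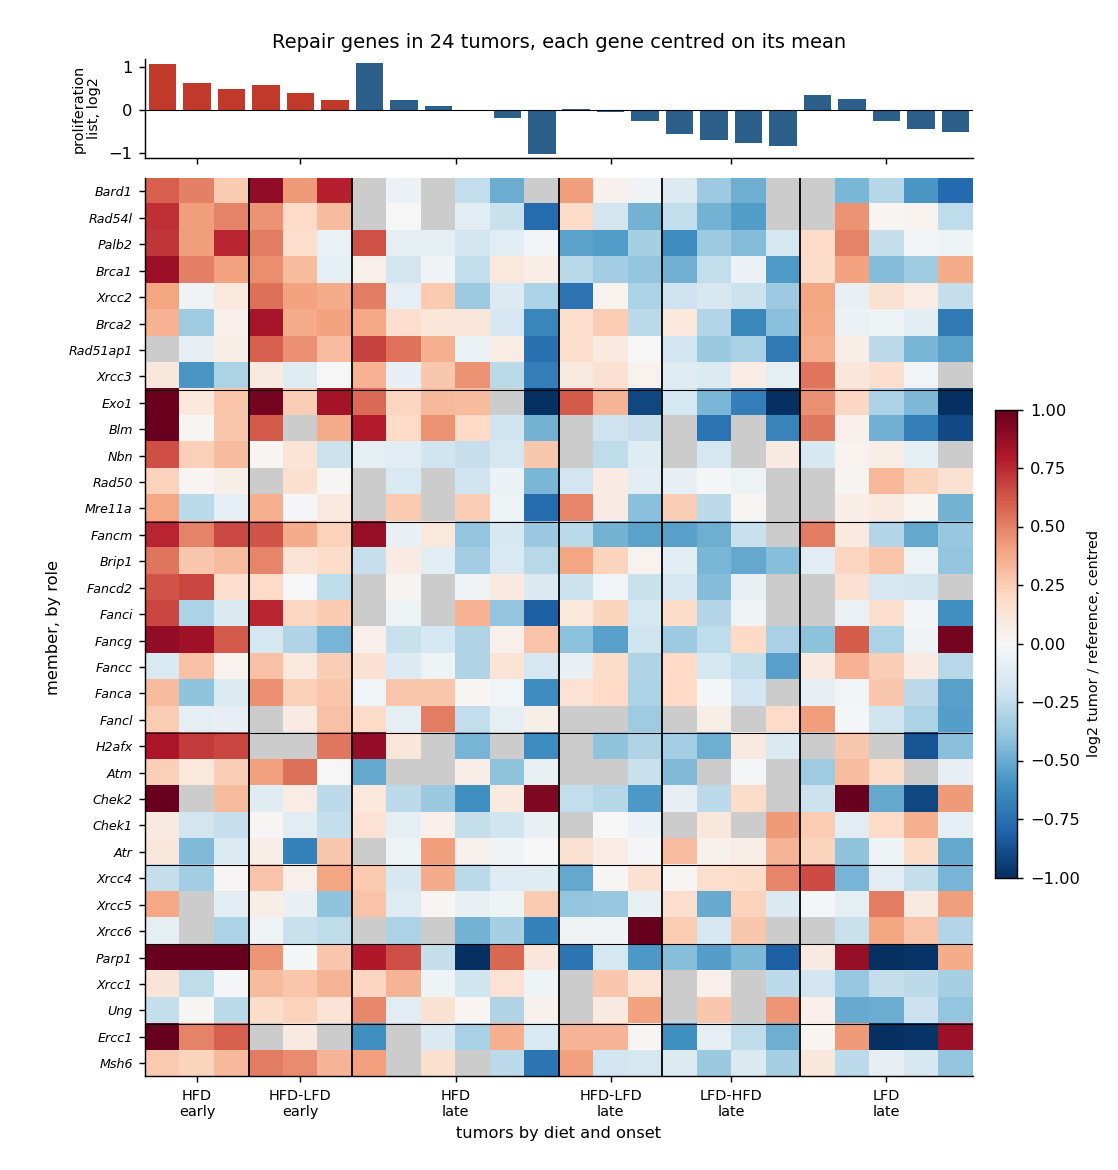
Log2 ratio of the 34 repair genes in the 24 tumors, each gene centred on its mean (color scale cut at −1 and 1, gray for missing), with the mean log2 ratio of 25 proliferation genes of each tumor as bars above. Within each diet and onset group the tumors are ordered by that mean, and the early tumors on the left are red in most rows outside the end joining genes.

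The early tumors sat on slides 2 and 4 and only slide 4 held both onsets, so slide and onset could hardly be separated. Slide 4 held the 3 early HFD-LFD tumors and a single late tumor, of an LFD-HFD mouse. A fit with slide as a fixed block therefore rests on that single late tumor of another diet. The count of 11 genes became 5 with slide as a random block (Bard1, Palb2, Rad54l, Fancm and Msh6) and 0 with slide as a fixed block, where the median difference was 0.40. Of all genes, 7.34% were called with the random block and 0.579% with the fixed one. Within scan session 1 (3 early and 8 late tumors) 4 repair genes passed, all higher, with a median of 0.27, where 2.62% of all genes passed as higher and 3.68% as lower. Within session 2 (3 early and 3 late) 6 passed, all higher, with a median of 0.34, where 4.67% of all genes passed as higher and 6.01% as lower. Bard1 and Fancm passed in both sessions, at 0.87 and 0.82 for Bard1 and 0.90 and 0.90 for Fancm. The sessions differed in diet and are not repeats of the same comparison. Session 1 set early HFD tumors against late HFD and LFD tumors. Session 2 set early HFD-LFD tumors against late HFD-LFD and LFD-HFD tumors. H2afx was at 1.06 in session 1, whereas its 0.93 in session 2 rested on 1 early tumor with a value against 3 late ones, and its lone early tumor was assumed to vary like the late ones. Brca1 was at 0.62 (adjusted p = 0.0835) and 0.55 (adjusted p = 0.0848) in the sessions. Median centring in place of loess shifted the median of all genes to 0.22 and that of the repair genes to 0.66. It called 24 repair genes, all higher, where 19.8% of all genes were called higher and 3.92% lower, against 6.36% and 9.91% with loess.

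Onset was next compared within a diet, where diet could not differ but slide did. Early HFD tumors sat on slide 2 and late ones on slides 3 and 6. Early HFD-LFD tumors sat on slide 4 and late ones on slides 5 and 7. Within a diet, slide and onset could therefore not be told apart. Under continuous HFD (3 early against 6 late tumors), 8 repair genes passed, all higher in early tumors, against 5.34% of all genes higher and 6.62% lower, and 14 had an unadjusted p under 0.05, against 29.1% of all genes. They were Rad54l (0.82, adjusted p = 0.0168), Bard1 (0.72), Brip1 (0.54), Fancg (0.83, adjusted p = 0.0249), Nbn (0.49, adjusted p = 0.0271), Brca1 (0.63), Palb2 (0.61) and Fancd2 (0.50, adjusted p = 0.0476), of which 5 had also passed over all diets. The median difference was 0.31, against −0.09 for all genes.

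The 3 genes that passed under HFD but not over all diets, Fancg, Nbn and Fancd2, had high values in early HFD tumors. Fancg was at 0.89, 1.12 and 1.16 in early HFD and at −0.19, −0.03 and 0.10 in early HFD-LFD tumors, with −0.03, 0.21 and 0.56 as the lowest, median and highest of late HFD tumors. The 2 highest LFD tumors were at 0.88 and 1.23, the one just below the early HFD tumors and the other above all of them. In 10 genes every early HFD tumor lay above every late HFD tumor (Atm, Bard1, Brca1, Brip1, Ercc1, Fancd2, Fancg, Parp1, Rad50 and Rad54l), and this held in 8.84% of all genes. The 8 calls fell to 0 without early HFD replicate 1, to 2 without early HFD replicate 2, to 4 without early HFD replicate 3 or late HFD replicate 2, and to 5 without late HFD replicate 3 or 4, and to 0 with slide as a random block.

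Under HFD-LFD (3 early against 3 late tumors), 0 repair genes passed by limma, against 0.67% of all genes higher and 0.44% lower, and 6 had an unadjusted p under 0.05, all higher, against 15% of all genes. The median difference was 0.33, against −0.06 for all genes. Xrcc2 came nearest, at 0.79 (SE 0.22, adjusted p = 0.0816), followed by Palb2 at 0.69 (adjusted p = 0.113), Fancm at 0.83 (adjusted p = 0.147), Bard1 at 0.56 (adjusted p = 0.155) and Brca1 at 0.57 (adjusted p = 0.208). In 11 of the 30 genes with enough values every early tumor lay above every late one (Bard1, Blm, Brca1, Brca2, Fanca, Fancm, Palb2, Parp1, Rad51ap1, Xrcc1 and Xrcc2), against 15.1% of all genes. Bard1, Brca1 and Parp1 were so separated in both diets, and the share of all genes separated in both was not computed. Brca1 was well above background in only 1 of the 3 late HFD-LFD tumors. Its order and the size of its difference there therefore rest in part on values not well above background.

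The change with onset was then compared between the diets. Of the 34 genes, 23 were above 0 in both diets, 4 below 0 in both and 7 of opposite sign. Of all genes, 41.8% were above 0 under HFD and 44.3% under HFD-LFD, and the share above 0 in both was not computed. Tested directly, the 2 changes differed in 0 repair genes by limma, against 0.0287% of all genes, and 3 had an unadjusted p under 0.05, against 8.12% of all genes. These were Fancg, with a change larger by 0.76 under HFD (95% interval 0.02 to 1.5), Brip1, larger by 0.50 (0.03 to 0.96), and Xrcc2, smaller by 0.61 on the log2 scale (−1.21 to −0.01), with adjusted p from 0.605 to 0.611. The interval was −0.52 to 0.64 for Brca1 and −1.21 to 0.29 for Brca2.

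**Figure D4:**
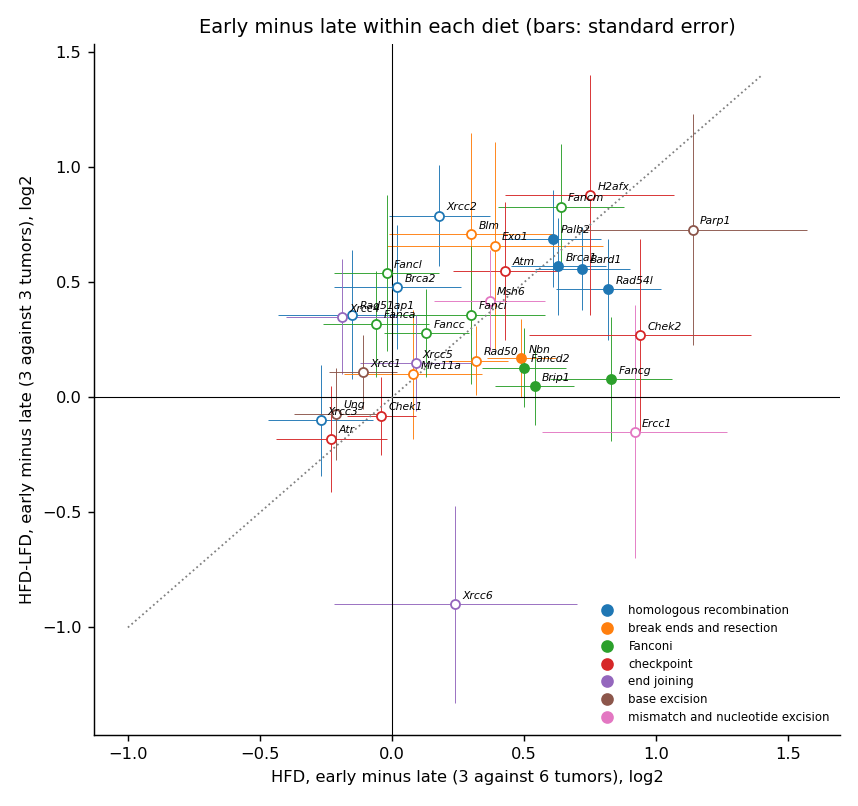
Early minus late difference of each repair gene under HFD (horizontal, 3 against 6 tumors) and under HFD-LFD (vertical, 3 against 3 tumors), in log2 of tumor over reference, with standard errors as bars and filled points for an adjusted p under 0.05 under HFD. Most points lie to the upper right, with 23 genes above 0 in both diets, and Xrcc6 lies apart at −0.90 under HFD-LFD.

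Diet itself was compared in 4 ways, all of which share the 5 LFD tumors, and the first 2 also share the 6 late HFD tumors. The LFD tumors sat on slides 1 and 6 and the HFD tumors on slides 2, 3 and 6. Late LFD-HFD tumors sat on slides 4, 6 and 7, and late HFD-LFD tumors on slides 5 and 7. Only slide 6 was shared with LFD, by late HFD and LFD-HFD tumors, so slide and diet could hardly be told apart. HFD against LFD (9 against 5 tumors) called 0% of all genes, 0 repair genes among them by limma. At an unadjusted p under 0.05 there were 3 repair genes, Xrcc1 (0.31), Bard1 (0.62) and Xrcc6 (−0.41), against 4.71% of all genes, each with an adjusted p of 0.96, and the median was 0.11. The 95% interval was −0.30 to 0.57 for Brca1 and −0.31 to 0.52 for Brca2.

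With late tumors alone, HFD against LFD again called 0% of genes, and 3 repair genes had an unadjusted p under 0.05, against 8.84% of all genes. These were Rad50 (−0.40), Xrcc1 (0.35) and Ung (0.36). Rad50 was at 0.95, 1.07, 1.14 and 1.25 in LFD tumors and at 0.46, 0.72, 0.77 and 0.86 in late HFD tumors, without overlap, with a limma adjusted p of 0.332. Missing were the values of 1 LFD and 2 late HFD tumors. The share of all genes without overlap here was not computed, and a second Rad50 probe was not compared by diet on its own. Xrcc1 was at −0.54, −0.49, −0.42, −0.40 and −0.35 in LFD tumors, below 5 of the 6 late HFD tumors, the sixth being at −0.36. A late LFD-HFD tumor at −0.42 and an early HFD tumor at −0.41 lay within that LFD range.

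Late LFD-HFD against LFD called 1.32% of all genes and 0 repair genes, with 5 at an unadjusted p under 0.05, against 18% of all genes. Of the 5, 4 had a negative difference: Rad54l (−0.49), Palb2 (−0.47), Brca1 (−0.37) and Brip1 (−0.36), with adjusted p from 0.148 to 0.271. Ung, the glycosylase that removes uracil from DNA, was the fifth and had the smallest p. It was at 0.12, 0.13, 0.23, 0.41 and 0.68 in LFD tumors and at 0.90 and 1.07 in the 2 LFD-HFD tumors with a value, a difference of 0.67 (SE 0.19, adjusted p = 0.0784). Its probe ends in a GT repeat, a sequence found in many transcripts. Late HFD-LFD against LFD called 2.45% of all genes and 0 repair genes, with 6 at an unadjusted p under 0.05, against 17% of all genes. Bard1 had the smallest p, with a difference of 0.67 (SE 0.17, adjusted p = 0.0508), followed by Xrcc1 at 0.48 (adjusted p = 0.0939) and Ung at 0.56 (adjusted p = 0.116), and Palb2 (−0.55), Fancg (−0.55) and Xrcc5 (−0.46) lay below LFD. The difference of Xrcc6 was 0.69 (SE 0.40, adjusted p = 0.417). The median differences of the repair genes were 0.01 for HFD, −0.21 for LFD-HFD and −0.05 for HFD-LFD. With slide as a random block, late LFD-HFD against LFD called 0.0191% of all genes and late HFD-LFD against LFD 0.311%.

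Other genes of DNA repair were described from a list of 100, of which 99 were tested. Of the 99, 11 were higher and 3 lower in early tumors, where 6.36% of all genes were higher and 9.91% lower. Their median was 0.13 and 62 lay above 0, against −0.05 and 43.3% for all genes. Apex1, the endonuclease of abasic sites, was higher by 1.05 (adjusted p = 0.00954), Ube2t, the conjugating enzyme of the Fanconi pathway, by 0.94 (adjusted p = 0.00181), and Rpa2, a subunit of the single-strand binding protein, by 0.78 (adjusted p = 0.00727). Parp3 fell by 1.20 (adjusted p = 0.00727), Mgmt, which removes alkyl groups from guanine, fell by 1.1 (adjusted p = 0.037), and the polymerase Polm fell by 0.56 on the log2 scale (adjusted p = 0.0467).

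Proliferation genes moved with onset as well. Of 25 tested on a list of 26, 14 were higher in early tumors, 0 lower, and all 25 lay above 0, with a median of 0.69. Top2a, the topoisomerase of dividing cells, differed by 1.19 (adjusted p = 0.0033). The mean log2 ratio of the list was 0.22 to 1.06 in early tumors with a median of 0.52, and −1.01 to 1.08 in late tumors with a median of −0.22. The median of the repair genes per tumor was 0.10 to 0.43 in early and −0.38 to 0.27 in late tumors.

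Among late tumors, where onset was held but diet and slide were not, repair genes were related to the proliferation list to different degrees. The mean of the list was −0.83 to −0.55 in late LFD-HFD tumors. Its median was 0.03 in late HFD, −0.05 in late HFD-LFD and −0.25 in LFD tumors. The permutations shuffled late tumors of all diets together, so a relation can include differences between diets. Pearson's r over the late tumors with a value (11 to 18 a gene) passed an adjusted p of 0.05 for 12 of the 34 genes, all positive, by a permutation test with 100000 resamples, two-sided and adjusted over the 34 relations, and Spearman's rho did for 9 of these 12. The test was not run over all genes, so the 12 have no share of all genes beside them. Rad51ap1 had r = 0.91 and rho = 0.90 (permutation p = 1e-05 for both, the smallest that the permutations can give, adjusted p = 0.00017 and 0.00034). The other r were 0.88 for Blm, 0.82 for Exo1 and Rad54l, 0.81 for Brca2 and Fancm, 0.77 for Msh6, 0.71 for H2afx, 0.68 for Xrcc3, 0.65 for Mre11a, and 0.57 for Palb2 and Xrcc2. Brca1 had r = 0.30 and rho = 0.37 (permutation p = 0.23 and 0.12), and Bard1 had r = 0.44 and rho = 0.41 (permutation p = 0.13 and 0.16). Brca1 was well above background in only 10 of the 18 late tumors, so its r rests in part on values near background. Its r was −0.02 in scan session 1 and 0.68 in session 3 (permutation p = 0.96 and 0.096).

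The lowest r was −0.43, for Nbn, and Atm had −0.26. The median r was 0.43 over the 34 genes and −0.02 over all genes, and 27 of the 34 and 47.7% of all genes had an r above 0. Without the 2 tumors farthest from the median of the list, 7 genes passed, 6 of them among the 12, with a median r of 0.36. In scan session 1 (8 late tumors) 3 genes passed, with a median r of 0.30, and in session 3 (7 late tumors) 1 of the 19 genes with at least 6 values passed, with a median r of 0.67. The 12 genes kept their sign wherever a session gave an r, 12 of 12 in session 1 and 8 of 8 in session 3. The sessions are part of the same late tumors in which the 12 were picked, so this is not an independent check. Rad51ap1 had r = 0.91 and 0.95 in the sessions (exact permutation p = 0.003 and 0.0016).

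With the proliferation list as a covariate in the comparison of onset, 0 repair genes passed by limma, where 147 of all genes did, and the median difference was 0.05, with 24 of 34 above 0. At an unadjusted p under 0.05 there were 5, against 15.2% of all genes. Differences moved toward 0 in 26 genes and away from it in 8. Mre11a went from 0.11 to −0.37 (adjusted p = 0.398) and Xrcc3 from −0.18 to −0.44 (adjusted p = 0.131). Those of Rad54l (0.62 to 0.04), Exo1 (0.76 to 0.05), Blm (0.63 to −0.01) and Brca2 (0.37 to −0.01) came close to 0, whereas Bard1 (0.84 to 0.59, adjusted p = 0.212), Brca1 (0.54 to 0.36, adjusted p = 0.285), Parp1 (0.97 to 0.47) and Atm (0.40 to 0.48) stayed further from it. For Brca1 this rests in part on late values near background, since 10 of 18 late tumors were well above it. The median of the 11 genes that had passed without the covariate went from 0.56 to 0.26, and all 11 remained above 0, from 0.04 to 0.59. They had been picked as higher in this same comparison, which favors such a sign, and 0 of them passed with the covariate.

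**Figure D5:**
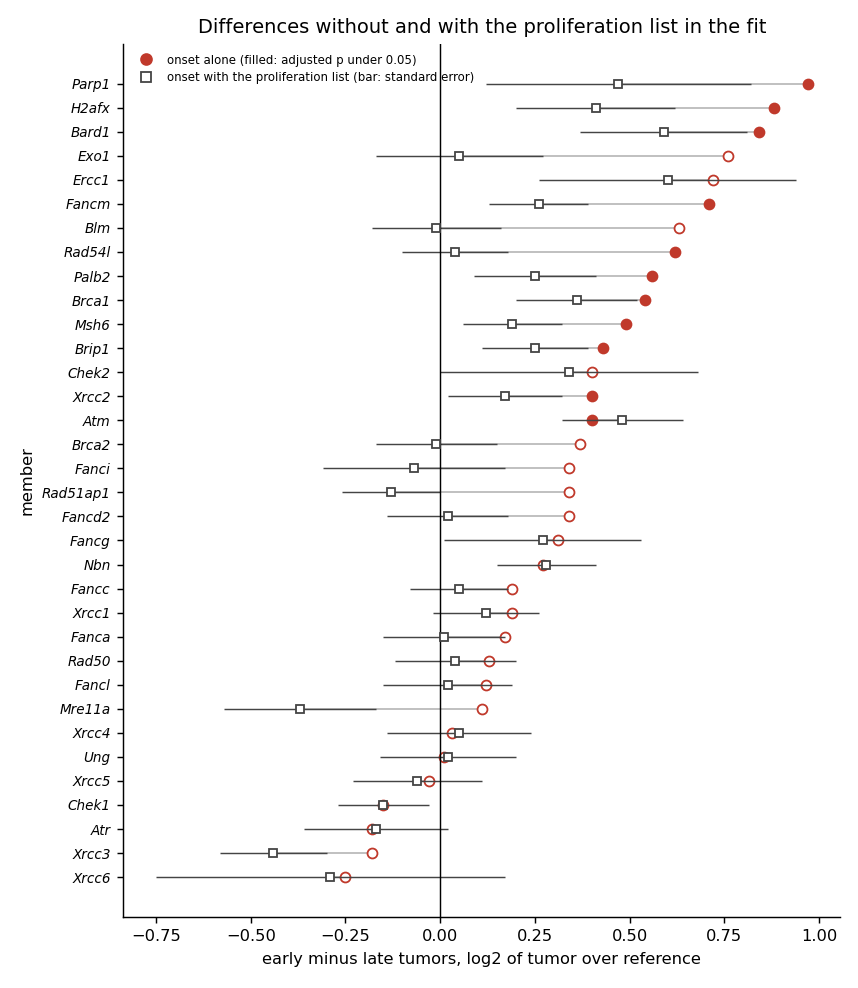
Early minus late difference of each repair gene in log2 of tumor over reference, from onset alone (circles, filled for an adjusted p under 0.05) and with the proliferation list in the fit (squares, bars are standard errors). The squares of Exo1, Blm, Rad54l and Brca2 lie at 0.05 or below, those of Bard1 and Brca1 at 0.59 and 0.36.

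Cell type markers also differed between the onsets. Of 9 luminal epithelial genes 3 were lower in early tumors (Gata3 at −2.15, Esr1 at −1.34 and Foxa1 at −3.25), 8 of 9 were below 0, and the mean of the list per tumor was −1.70 to 0.49 in early and −3.28 to 1.47 in late tumors. All 10 squamous genes were above 0, with a median difference of 1.57 and 0 passing by limma, and the mean per tumor was −0.56 to 2.16 in early and −2.46 to 5.20 in late tumors. Lyz2 of the macrophage list was higher by 0.68, while Dcn of the fibroblast list and Mb of the skeletal muscle list fell by 2.45 and 1.49 on the log2 scale. Each was the only gene of its list that passed. Above 0 were 4 of 6 macrophage genes (median 0.12), 2 of 5 fibroblast genes (median −0.56) and 1 of 5 skeletal muscle genes (median −0.27). The basal, T cell, B cell, endothelial and adipocyte lists had 0 genes called, and all 5 T cell genes were below 0, with a median of −0.88. The part of these cell types in the differences of the repair genes was not tested.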

How the data were processed

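Tumor RNA and universal mouse reference RNA were hybridized to Agilent 4 x 44K arrays. The intensity values deposited by the authors hold each spot's mean brightness, local background and background-subtracted brightness per dye, and the deposited log10 values are the scanner software's dye-normalized ratios of Cy5 to Cy3. The submitters' processing notes name Agilent Feature Extraction 8.5.1.1, and the file headers 11.0.1.1. Diet and onset were read from the labels. The number of arrays, 24, limits the precision.

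Intensities were analysed with R 4.3.3 and limma 3.58.1. Background was corrected by normexp (offset 50, fitted on spots that were neither flagged as outliers nor in dimmed rows), and ratios were normalized by loess within arrays. Flagged spots and the dimmed rows of slides 6 and 7 were left missing. Spots of a probe were averaged. A probe had to exceed a signal of 10 in both dyes on 80% of arrays or more (27281 probes) and to have a value on 50% of arrays or more (27188 probes), the latter filter being added after the design was written. Of the 39429 probes, a RefSeq table named 27234 through their accession, 3576 through the current symbol and 565 through a former symbol, while 8054 without a match go by their array annotation. The brightest probe stood for each gene, and 24 of the 34 repair genes had 1 probe.

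Onset (6 against 18 tumors) and HFD against LFD (14 tumors) were 2-group fits, and other comparisons were contrasts of 6 group means over 24 arrays, each with Benjamini-Hochberg adjustment over all genes at 0.05. The repair genes and the gene lists were chosen with earlier results of these data known. Named were all 34 genes, with full values for Brca1, Brca2 and the gene with the smallest p in each role, and the 3 other repair genes with the smallest p in each direction. The relation to proliferation was the Pearson and Spearman correlation with the mean of the list. Alternatives changed the scaling, filters, missing values, probe choice, weights, blocks, covariates and tumors. In simulated data (early against late, 20894 genes), 100 genes were changed by 0.5 and 100 by 1 log2 unit. The fit called 17% of the former and 71% of the latter, with 8 unchanged genes called. So few changed genes make the adjustment stricter than in the data, where 16.3% of all genes were called for onset. These shares therefore do not carry over to the data. Figures were drawn with matplotlib 3.10.9. Protein sequences were not analysed here.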

Additional observations from a re-analysis of the deposited data

Results flagged for a closer look

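Of 22 tests for a tumor far from its group, over the genes described tumor by tumor, 1 stood out. Groups with fewer than 4 values, which include every early group and late HFD-LFD, were not tested. The late HFD-LFD tumor with Xrcc6 at 2.52 was therefore not tested. Exo1 in late HFD replicate 1 was at −0.07, with the nearest of the other 4 late HFD tumors at 1.27. The same tumor had the lowest mean of the proliferation list, −1.01. Chance alone gives such a result in about 1 in 20 groups.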

How the results depend on the processing

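The count of 11 repair genes for onset ranged from 7 to 14 when each tumor was left out in turn (median difference 0.26 to 0.41), with 7 without early HFD replicate 1 or 2. In the following, the share of all genes called higher in the same fit stands in brackets, 6.36% for the 11. The count was 24 with median centring (19.8%, median 0.66, all genes 0.22), 6 with the dimmed rows kept (3.73%), 19 with array weights (14.7%), 5 with slide as a random block (2.84%) and 0 with slide as a fixed block (0.168%). It was 4 and 6 within scan sessions 1 and 2 (2.62% and 4.67%), 0 with the proliferation list as a covariate (0.45%, median 0.05), 6 as the mean of the within-diet contrasts (6.67%) and 17 without adjustment (12.8%). Under HFD the 8 (5.34%) became 0 with the dimmed rows kept (2.65%) or slide as a random block (1.45%), 12 with array weights (16.7%) or median centring (13.3%), the median became 0.70 with median centring, and leaving out tumors gave 0 to 10 (median 0.16 to 0.40). Under HFD-LFD the 0 (0.67%) became 1 with median centring (1.67%, median 0.68) or without slides 6 and 7 (1.27%), 6 with array weights (5.2%) and 2 with scan session as a block (1.02%), and 0 to 2 when tumors were left out (median 0.24 to 0.39). The difference between the diets stayed at 0 (median −0.14 to 0.04 with tumors left out).

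HFD against LFD called 3 genes without adjustment and 0 in each fit without a tumor (median 0.06 to 0.18). Late HFD against LFD called 5 with array weights, where 12% of all genes were called, and 0 without each tumor (median −0.04 to 0.10). Late LFD-HFD against LFD called 1 with imputation, array weights or session as a block (1.91%, 8.79% and 1.27% of all genes), and 0 to 1 without each tumor (median −0.23 to −0.10). Late HFD-LFD against LFD called 2 with imputation (2.65%), 1 without slides 6 and 7, with array weights or with session as a block (2.13%, 7.01% and 0.79%), and 0 to 2 without each tumor (median −0.12 to 0.00). The relation to proliferation, not tested over all genes, passed in 7 genes without the 2 farthest tumors, 3 in session 1 (median r 0.30) and 1 in session 3 (median r 0.67). Xrcc6 turned to 0.28 with median centring, near the median of all genes there, and to 0.82 with the dimmed rows kept, and Brca2 to −0.01 with the covariate. The cause was not tested. Bard1, Brca1, Fancm, Msh6, H2afx and Rad54l were called in 24 of 24 fits that left out a tumor, Palb2 and Brip1 in 23, Parp1 in 21, Exo1 in 7.

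No paired analysis was possible because no label pairs tumors across groups. Early tumors are few and share slides. Changes of 0.5 log2 units were mostly missed in simulation, but far fewer genes changed there than were called in the data. That share therefore does not measure what was missed here.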
